A study of Mus musculus with 12 samples.

Results

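The 41 genes described here encode transporters, endocytic receptors, peptidases, metabolic enzymes and regulators of the kidney proximal tubule. They were taken as a named list and matched to array probes by RefSeq accession. All 41 had a probe, and 40 of them passed the filter on dim probes, among 15215 genes tested. The remaining member, Slc7a13, was not well above background on any of the 12 arrays. The rule used no measured value, although the list was drawn up with earlier results of these arrays known.

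RNA was measured on 12 one-colour arrays, 2 in each of 6 groups, all of mice with an inducible Cre (CreERT2) and floxed Foxc1 and Foxc2. These are forkhead transcription factors that the study deletes to ask what adult podocytes need. The first pair of groups was glomeruli of tamoxifen-treated mice, injected on 3 days when they were 8 weeks old and sampled on day 7, and glomeruli of control mice, which were given no agent. The other groups were primary podocyte cultures grown from glomeruli of adult mice, treated with tamoxifen or mock-treated and harvested at day 4 or day 7. The genotype labels number the second floxed Foxc gene differently in each sample, so the gene name follows the study's title. The promoter that drives the Cre is not given in the sources used here. Drug and gene deletion come together in every treated sample and cannot be told apart. The glomerular labels name single mice, while those of the cultures leave unsaid if each number is a culture of its own, so the spread between them may be technical.

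On each array 57.9% to 63.4% of spots were well above background, 0 were saturated, and replicates correlated at 0.983 to 0.99 across genes. Foxc2 read -1.12 and -0.19 in treated glomeruli, against 2.10 and 2.24 in control glomeruli, and it fell by 2.82 (SE 0.51, adjusted p = 0.037 by limma). Foxc1 read 0.92 and 1.09 in treated glomeruli, against 2.92 and 2.81 in control glomeruli, without passing (adjusted p = 0.62). Whether these probes lie in the deleted parts of the genes is unknown. Values here and below are log2 signals set against the 75th percentile of each array, and differences are log2 differences between group means. They compare 1 probe between samples and not 1 gene with another. The number of arrays limits the precision: 2 samples against 2 cannot give an exact two-sided permutation p under 0.333, so the p-values are limma's, with a spread pooled over all 12 arrays.

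The proximal tubule takes back most of what the glomerulus filters. Its brush border carries sodium-coupled transporters for glucose, phosphate and amino acids and the megalin and cubilin receptors that take up filtered protein, and its basolateral side carries organic anion and cation transporters for secretion. Cells of its early segments (S1 and S2) differ from those of its straight end (S3) in several of these transporters. Its cells also make glucose, activate vitamin D and oxidise fatty acids and amino acids. In RNA of a whole preparation, more cells of a type and more RNA per cell cannot be told apart.

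Proximal tubule genes were higher in glomeruli of tamoxifen-treated mice than in control glomeruli, nearly throughout the list. Of the 40 tested members 39 had a higher mean, which held for 42.7% of all genes tested. The median difference was 1.64 (quartiles 1.38 and 1.81), a factor of 3.11 on the linear scale, against a median of -0.05 over all genes. Of these differences 36 lay between 1 and 2. At an adjusted p under 0.05, 11 members rose and 0 fell, while 1.74% of all genes rose, 0.9% fell and 2.64% did either. For 38 of the 40 both treated arrays lay above both control arrays, as they did for 19.8% of all genes, and for 0 members they lay below, as for 28.1% of all genes. The exceptions were Hpd and Cyp4b1. An unadjusted p under 0.05 was reached by 38 members and by 18.3% of all genes. Without treated mouse 1 the members' median was 1.23 and 2 rose, without treated mouse 2 it was 2.09 and 18 rose, and without control mouse 1 it was 1.38 and 2 rose. Without any 1 culture array, which enters only through the pooled spread, 4 or 5 rose. On the glomerular arrays alone, and with another background correction (normexp), limma called 0 members, although 34 and 36 of them had an unadjusted p under 0.05.

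**Figure D1:**
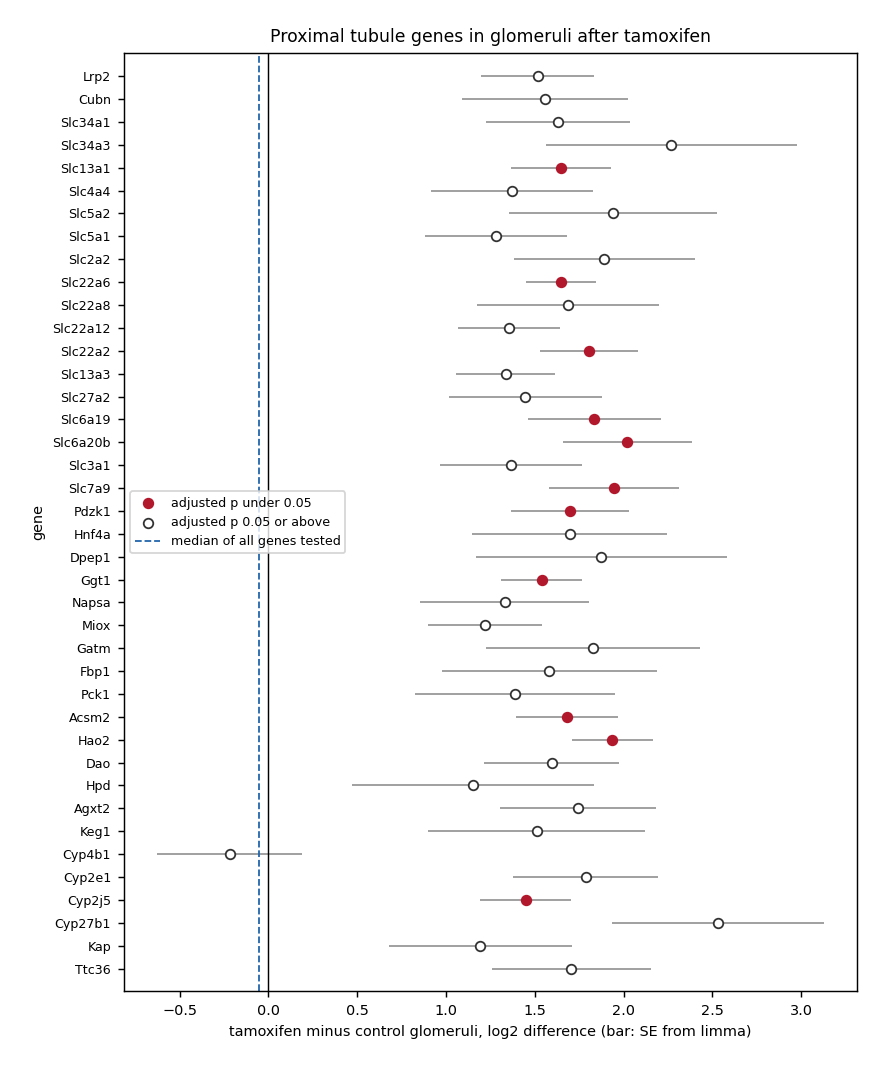
Difference between tamoxifen and control glomeruli (horizontal axis, log2) for the 40 tested proximal tubule genes, ordered by class, with limma's standard error as bars, filled points for an adjusted p under 0.05 and a dashed line at the median of all genes. All but Cyp4b1 lie to the right of 0, and the 11 filled points range from 1.45 to 2.02.

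The amount of proximal tubule signal differed between single mice. Summed over the 40 genes on the linear scale, the level was 630.3 and 358.8 times the array's 75th percentile in treated mice 1 and 2, against 182.1 and 203.2 in control mice 1 and 2. Treated mouse 1 read above treated mouse 2 for 39 of the 40 members, by a median of 0.93, where 44.6% of all genes did so. The order treated 1, treated 2, then both controls held for 37 of the 40 members and for 13.2% of all genes. The exception between the treated mice was Slc5a1. The controls were less uniform: control mouse 1 read below control mouse 2 for 26 members, with a median difference of -0.44 and extremes of -2.55 for Slc34a3 and 0.68 for Cyp27b1. Over all genes, control mouse 1 read below control mouse 2 for 7549 of 15215, with a median difference of 0.003.

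Promoter windows were on hand for 36 of the 41 members (RefSeq, GRCm38.p6). They are shown because the members were higher together in treated glomeruli. The motif CAAAGTCC, part of what the nuclear receptor encoded by the member Hnf4a is known to bind, was searched on both strands. It was found for 5 of the 36 members (13.9%), namely Agxt2, Ggt1, Pdzk1, Slc34a1 and Slc3a1, and for 1.63% of 27025 genes with a window; genes with several start sites have several windows. The windows searched ran further past the start site than those shown. A few follow, cut to 250 bases before to 30 after a start site, with the motif or its reverse complement GGACTTTG in capitals. They were chosen because Ggt1 and Pdzk1 rose in treated glomeruli and Slc34a1 is a defining gene of the early segments. A match is a description of letters, not a site of binding, and its bearing on the glomerular differences was not tested. Agxt2, Slc34a1 and Slc3a1, which hold the motif, did not pass in treated glomeruli, nor did Hnf4a.
Ggt1, chr10:75573245-75573524, plus strand: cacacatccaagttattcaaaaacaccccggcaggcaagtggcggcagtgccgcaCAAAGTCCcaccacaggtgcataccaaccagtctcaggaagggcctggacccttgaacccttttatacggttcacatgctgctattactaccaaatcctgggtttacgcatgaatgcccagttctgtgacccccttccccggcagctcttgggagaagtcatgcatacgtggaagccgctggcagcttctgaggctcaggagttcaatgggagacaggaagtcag
Pdzk1, chr3:96829815-96830094, plus strand: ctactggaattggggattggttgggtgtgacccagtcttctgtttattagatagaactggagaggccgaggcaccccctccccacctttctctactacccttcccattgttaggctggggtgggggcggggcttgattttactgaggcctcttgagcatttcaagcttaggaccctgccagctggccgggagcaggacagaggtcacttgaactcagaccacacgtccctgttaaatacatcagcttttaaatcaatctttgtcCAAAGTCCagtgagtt
Slc34a1, chr13:55399398-55399677, plus strand: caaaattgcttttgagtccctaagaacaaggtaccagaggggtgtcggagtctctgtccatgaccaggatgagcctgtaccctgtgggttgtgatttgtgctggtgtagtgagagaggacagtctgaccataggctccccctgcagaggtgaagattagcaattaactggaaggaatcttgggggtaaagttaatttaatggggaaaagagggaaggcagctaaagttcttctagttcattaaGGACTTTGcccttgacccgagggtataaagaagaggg

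Both receptors of protein uptake were higher in treated glomeruli without passing. Lrp2, which encodes megalin, read 3.96 and 2.84 in treated glomeruli, against 1.90 and 1.86 in control glomeruli (difference 1.52, SE 0.32, adjusted p = 0.052 by limma). Its partner cubilin, from Cubn, read 2.66 and 1.37 in treated glomeruli, against 0.48 and 0.44 in control glomeruli (difference 1.56, SE 0.47, adjusted p = 0.13 by limma). For each of them the groups did not overlap, and the treated mice lay further apart than the control mice.

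All 4 transporters of phosphate, sulfate and bicarbonate had treated arrays above control arrays, and 1 passed. Slc13a1, the sodium-sulfate cotransporter NaS1, rose, reading 1.22 and 0.70 in treated glomeruli, against -0.93 and -0.45 in control glomeruli (difference 1.65, SE 0.28, adjusted p = 0.032 by limma). Its difference was 1.38 to 1.91 without 1 array. The call was kept in 2 of these 12 fits and was lost under 2 other settings. The sodium-phosphate cotransporters NaPi-IIa and NaPi-IIc come from Slc34a1 and Slc34a3. Slc34a1 read 4.28 and 3.16 in treated glomeruli, against 1.69 and 2.48 in control glomeruli (difference 1.63, adjusted p = 0.08). Slc34a3 read 2.77 and 1.80 in treated glomeruli, against -1.26 and 1.29 in control glomeruli (difference 2.27, adjusted p = 0.14). Its control mice differed by more than its group means, control mouse 1 being the low one, and the difference was 0.99 without that array. The sodium-bicarbonate cotransporter gene Slc4a4 was at 1.37 (adjusted p = 0.16).

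Glucose transporters of the early and late segments were both higher on treated arrays, and 0 of 3 passed. Slc5a2, which encodes SGLT2 of the early segments, read 4.18 and 2.98 in treated glomeruli, against 0.75 and 2.53 in control glomeruli (difference 1.94, SE 0.59, adjusted p = 0.13 by limma). Slc2a2, for the basolateral GLUT2, read 0.70 and 0.01 in treated glomeruli, against -2.18 and -0.90 in control glomeruli (difference 1.89, SE 0.51, adjusted p = 0.096 by limma). In both genes control mouse 1 was the lowest. Slc5a1, which encodes SGLT1 of the S3 segment, read -4.31 and -4.21 in treated glomeruli, against -5.28 and -5.79 in control glomeruli (difference 1.28, SE 0.40, adjusted p = 0.14 by limma). Control mouse 2 was not well above background for it, so the size of that difference is uncertain.

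Among 6 transporters of organic ions 2 rose. Slc22a6, the organic anion transporter OAT1, read 3.78 and 3.15 in treated glomeruli, against 1.85 and 1.79 in control glomeruli (difference 1.65, SE 0.20, adjusted p = 0.015 by limma). Slc22a2, the organic cation transporter OCT2, read 1.53 and 0.87 in treated glomeruli, against -0.71 and -0.49 in control glomeruli (difference 1.80, SE 0.28, adjusted p = 0.026 by limma). In both genes the control mice lay close to each other and below the treated mice. Leaving out any 1 of the 12 arrays kept the call of Slc22a6, and that of Slc22a2 was kept in 8 of these 12 fits. The second organic anion transporter OAT3, from Slc22a8, was at 1.69 (adjusted p = 0.13), and the urate transporter URAT1, from Slc22a12, at 1.36 (adjusted p = 0.053). The dicarboxylate transporter gene Slc13a3 was at 1.34 (adjusted p = 0.052) and Slc27a2, a fatty acid transport protein, at 1.45 (adjusted p = 0.12).

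Amino acid transporters held 3 calls among 4 tested members. Slc6a20b, of the SLC6 family, read 0.25 and -0.93 in treated glomeruli, against -2.63 and -2.09 in control glomeruli, and rose by 2.02 (SE 0.36, adjusted p = 0.036 by limma). Slc7a9, the light chain of the cystine transporter, read 2.86 and 1.85 in treated glomeruli, against -0.07 and 0.87 in control glomeruli, and rose by 1.95 (SE 0.36, adjusted p = 0.04 by limma). Slc6a19, the neutral amino acid transporter B0AT1, read 1.08 and -0.01 in treated glomeruli, against -1.75 and -0.85 in control glomeruli, and rose by 1.83 (SE 0.37, adjusted p = 0.0498 by limma). When arrays were left out 1 at a time, each of these 3 calls was kept in 2 of 12 fits. The heavy chain rBAT, from Slc3a1, was at 1.36 (adjusted p = 0.12). The S3 transporter gene Slc7a13 read -7.60 and -7.71 in treated glomeruli, against -8.02 and -7.85 in control glomeruli, and none of these arrays was well above background for it.

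Of the scaffold Pdzk1, which anchors brush border transporters, and the regulator Hnf4a, the first rose. Pdzk1 read 5.35 and 4.28 in treated glomeruli, against 2.88 and 3.34 in control glomeruli (difference 1.70, SE 0.33, adjusted p = 0.046 by limma), and the call was kept in 1 of the 12 fits without 1 array. Hnf4a, a nuclear receptor needed for proximal tubule maturation, read 3.91 and 3.07 in treated glomeruli, against 1.61 and 1.98 in control glomeruli (difference 1.70, SE 0.55, adjusted p = 0.15 by limma). The sizes were alike and the standard errors were not. Among peptidases the brush border enzyme gamma-glutamyltransferase rose: Ggt1 read 1.92 and 1.22 in treated glomeruli, against -0.01 and 0.08 in control glomeruli (difference 1.54, SE 0.23, adjusted p = 0.024 by limma), and it was kept in 10 of the 12 fits. The dipeptidase gene Dpep1 was at 1.87 (adjusted p = 0.21) and Napsa, the aspartic protease napsin A, at 1.33 (adjusted p = 0.19), both without overlap between the groups.

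**Figure D2:**
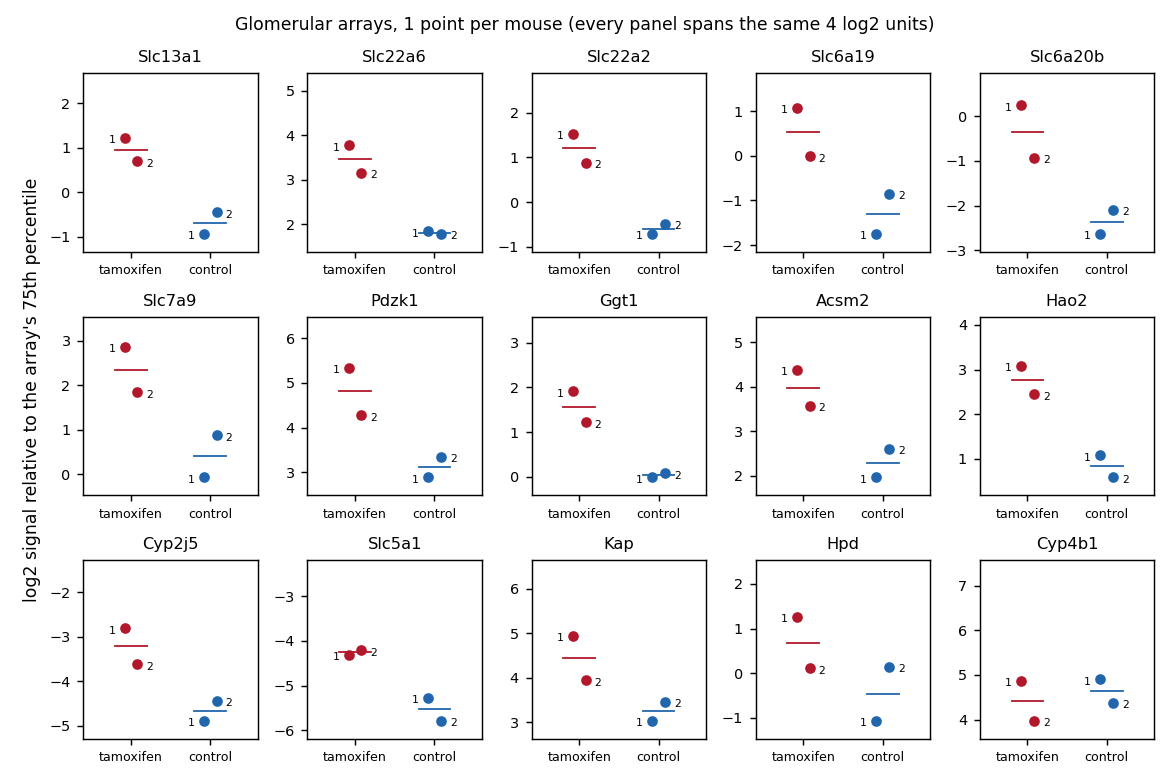
Level of 15 proximal tubule genes in each mouse (vertical axis, log2 signal relative to the array's 75th percentile), tamoxifen left and control right, with mouse numbers at the points and means as lines; each panel spans 4 log2 units. The first 11 genes passed the test, and in Hpd and Cyp4b1 the treated and control mice overlap.

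Metabolic enzymes gave 2 calls among 10 genes. Hao2, a peroxisomal hydroxyacid oxidase, read 3.08 and 2.45 in treated glomeruli, against 1.08 and 0.58 in control glomeruli (difference 1.94, SE 0.23, adjusted p = 0.015 by limma), a call kept in each of the 12 fits without 1 array. Acsm2, a mitochondrial acyl-CoA synthetase, read 4.38 and 3.57 in treated glomeruli, against 1.97 and 2.61 in control glomeruli (difference 1.68, SE 0.29, adjusted p = 0.032 by limma), kept in 2 of the 12. The gluconeogenic genes Fbp1 and Pck1 were at 1.58 and 1.39 (adjusted p = 0.22 and 0.24). Pck1 had the widest gap between treated mice, reading 5.28 and 3.51. Miox, which encodes the myo-inositol oxygenase of the tubule, was at 1.22 (adjusted p = 0.092), and Gatm, the first enzyme of creatine synthesis, at 1.83 (adjusted p = 0.16). Dao, for the D-amino acid oxidase, was at 1.60, the aminotransferase gene Agxt2 at 1.74 and Keg1 at 1.51 (adjusted p = 0.071, 0.082 and 0.24). Hpd, of tyrosine breakdown, read 1.27 and 0.11 in treated glomeruli, against -1.07 and 0.14 in control glomeruli, so that treated mouse 2 lay just below control mouse 2 (difference 1.15, adjusted p = 0.42).

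The cytochrome P450 genes held both extremes of the list. Cyp27b1, the vitamin D 1-alpha-hydroxylase, read -2.57 and -4.04 in treated glomeruli, against -5.50 and -6.18 in control glomeruli (difference 2.53, SE 0.60, adjusted p = 0.069 by limma). Control mouse 2 was not well above background for it, so the largest difference of the list rests partly on an unmeasured level. Cyp4b1, of the CYP4 family, read 4.87 and 3.97 in treated glomeruli, against 4.91 and 4.37 in control glomeruli, and was the 1 member with a lower mean (difference -0.22, SE 0.41, adjusted p = 0.83 by limma). Without control mouse 1 its difference was 0.05, and without treated mouse 2 it was 0.23. Cyp2j5, an arachidonic acid epoxygenase, read -2.81 and -3.62 in treated glomeruli, against -4.89 and -4.43 in control glomeruli, and rose by 1.45 (SE 0.26, adjusted p = 0.034 by limma). Its difference was 1.05 to 1.85 without 1 array. The call was kept in 2 of these 12 fits and was lost under 3 other settings. Cyp2e1, which oxidises small molecules, was at 1.79 (adjusted p = 0.064). Kap, the kidney androgen-regulated protein, read 4.94 and 3.94 in treated glomeruli, against 3.03 and 3.46 in control glomeruli (difference 1.19, SE 0.51, adjusted p = 0.27 by limma), and its groups did not overlap. Ttc36, which encodes a tetratricopeptide repeat protein, read 1.68 and 0.67 in treated glomeruli, against -0.65 and -0.42 in control glomeruli (difference 1.71, SE 0.45, adjusted p = 0.092 by limma).

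By kind, the 17 tested transporters of the solute carrier family had a median difference of 1.65 with 6 calls, and the 23 other members 1.58 with 5 calls. By segment, the 10 genes of S1 and S2 had a median of 1.76, with a range of 1.36 to 2.27 and 3 calls. In all 10 the treated arrays lay above the control arrays, as they did for 38 of the 40 members and for 19.8% of all genes. Over all genes 1.74% rose. The 27 members not assigned to a segment had a median of 1.60 with 8 calls. Lrp2 and Cubn, listed under all segments, had a median of 1.54 with 0 calls. Slc5a1 was the only tested member listed under S3 alone. Control mouse 1 read below control mouse 2 in 7 of the 10 early-segment genes, with a median of -0.88. Over all members this held for 26 of 40, with a median of -0.44. The summed linear level of the early-segment genes was 72.6 and 37.6 in treated mice, against 11.4 and 21.6 in control mice.

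A second list of 48 proximal tubule genes behaved in the same direction with a lower median. Of its 43 tested genes 41 had a higher mean, 35 did not overlap, 7 rose and 0 fell, with a median of 1.37. Over all genes tested 42.7% had a higher mean, 1.74% rose and 0.9% fell. Without overlap, 19.8% of all genes were higher and 28.1% lower. The 7 were the transporter genes Slc5a10 (1.22), Slc17a3 (1.74), Slc6a18 (1.32) and Slc6a13 (1.32), the metalloprotease gene Mep1a (1.38), the ketohexokinase gene Khk (1.22) and Fah of tyrosine breakdown (1.41), with limma adjusted p-values of 0.016 to 0.048. Within this list 8 tested genes are known from S3, and their median was 0.57 with 1 call, Slc6a18. The organic anion transporter gene Slc22a7 was at 0.13, Serpina1f at 0.21 and the water channel gene Aqp7 at -0.06. Slc22a19, also an S3 transporter, was at 1.44 without passing (adjusted p = 0.22). The difference between S3 and early-segment genes was not tested.

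**Figure D3:**
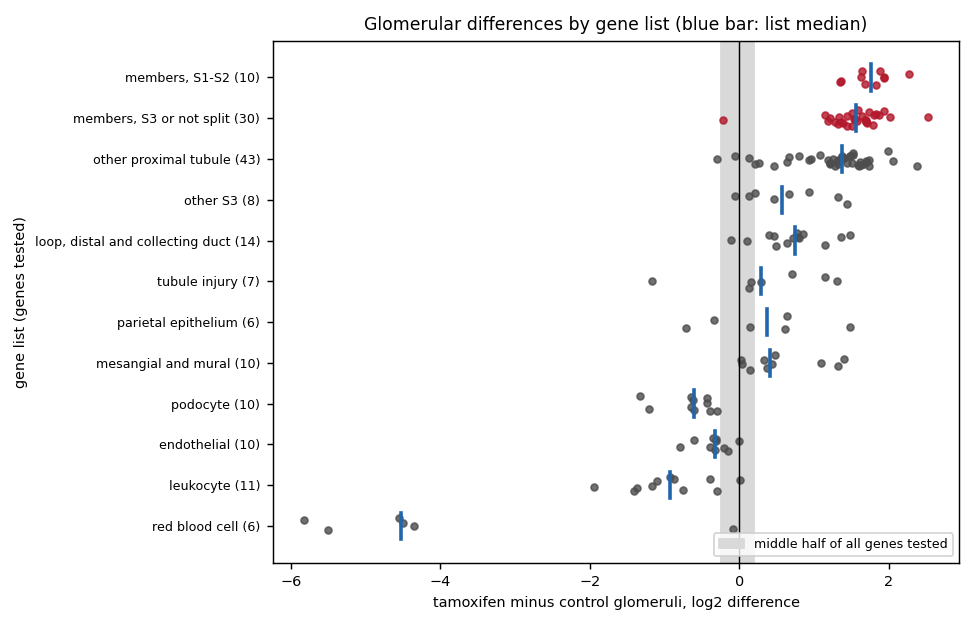
Difference between tamoxifen and control glomeruli (horizontal axis, log2), 1 point per tested gene, by list, with list medians as blue bars and the quartile range of all genes shaded (-0.24 to 0.19). The medians are 1.76 for S1-S2 members, 1.37 for other proximal tubule genes, 0.57 for other S3 genes, 0.74 for later nephron segments and -0.61 for podocyte genes.

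Markers of other kidney cells moved with these genes in both directions. For comparison, 42.7% of all genes tested had a higher mean, 1.74% rose and 0.9% fell. Of 14 tested genes of the loop of Henle, distal tubule and collecting duct 13 had a higher mean and 2 rose, Slc12a1 (1.48, adjusted p = 0.031) and Kcnj1 (0.77, adjusted p = 0.033), with a list median of 0.74. Their summed level was 109.3 and 106.5 in treated mice, against 77.1 and 79.0 in control mice. Their median level was 0.04 and -0.33 in treated mice 1 and 2, against -0.44 and -0.89 in control mice 1 and 2. Umod, the most abundant protein of urine, was at 0.10, and the collecting duct water channel gene Aqp2 at -0.11. All 10 podocyte genes had a lower mean, with a median of -0.61, 1 call (Synpo, -1.32, adjusted p = 0.036) and Ptpro at -1.20. Their summed level was 323.9 and 451.1 in treated mice, against 495.3 and 661.5 in control mice, the lowest value being that of treated mouse 1, where proximal genes were highest. Between the control mice the order was shared: mouse 2 was above mouse 1 for podocyte genes and for the members (203.2 against 182.1). Endothelial genes had a median of -0.32 with 0 calls among 10, Cldn5 being at -0.79 and Pecam1 at -0.39. Mesangial and mural genes had a median of 0.41 with 1 call among 10, Acta2 (2.14-fold on the linear scale, adjusted p = 0.016), and Myh11 at 1.32. Parietal epithelial genes had a median of 0.38 with 0 calls among 6, Pax8 being at 0.64 and Krt8 at 1.48.

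Blood cell genes were lower in treated glomeruli, where 0.9% of all genes tested fell and 42.7% had a higher mean. Of 6 tested red blood cell genes 4 fell, among them Hbb-b2, a beta-globin with near-identical copies, which fell by 5.50 (adjusted p = 0.013). Alas2, of haem synthesis, also passed (adjusted p = 0.023), and both treated arrays were not well above background for it. The list median was -4.53. Their summed level was 0.91 and 7.43 in treated mice, against 87.6 and 39.3 in control mice. Of 11 leukocyte genes 10 had a lower mean and Ms4a1 fell by 1.95 (adjusted p = 0.024), with a median of -0.92 and Ptprc at -1.11. Genes of tubule injury had a median of 0.29 with 0 calls among 7, and the injury marker gene Havcr1 was not well above background on any array. Lcn2 was at -1.16, and Krt20 was not well above background on the glomerular arrays. These named genes do not stand for the injury list, whose summed level was 40.4 and 38.8 in treated mice, against 32.4 and 34.2 in control mice. Its median level was -0.11 and -0.16 in treated mice, against -0.73 and 0.44 in control mice. On each glomerular array 5 of the 7 were well above background. The part of these cell markers in the differences of proximal tubule genes was not tested.

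Several proximal tubule genes differ by sex in mouse kidney, and the labels give no sex. The probes of 4 genes of the Y chromosome (Ddx3y, Kdm5d, Eif2s3y and Uty) were well above background on 0 of 12 arrays, and Xist, the X inactivation transcript, on 12 of 12. Xist read -2.53 and -2.87 in treated glomeruli, against -2.21 and -2.37 in control glomeruli. Slc7a13 and Slco1a1, which are known to be higher in males, were well above background on 0 of 12 arrays. Of the male-higher genes 6 were tested, with a median of 1.14 and 0 calls, and of the female-higher genes 3, with a median of 1.24 and 0 calls. Cyp4b1 and Kap belong to the first of these lists, and Cyp4a14, at 1.24 (adjusted p = 0.054), to the second.

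In podocyte cultures most of the proximal tubule genes were not measurable. While 38 of the 41 were well above background on all 4 glomerular arrays, 22 were well above it on 0 of 8 culture arrays, 9 on some and 10 on all 8. Those 10 were Lrp2, Cubn, Slc4a4, Slc22a6, Pdzk1, Dpep1, Ggt1, Napsa, Gatm and Cyp4b1. The summed linear level of the 40 genes was 1.17 to 1.50 on the 8 culture arrays, against 182.1 to 630.3 on the 4 glomerular arrays. For Cubn and Slc34a1, 2 probes disagreed in cultures: the brighter-on-average probe of Cubn was well above background on 8 culture arrays and the other on 0, and the counts for Slc34a1 were 6 and 0.

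**Figure D4:**
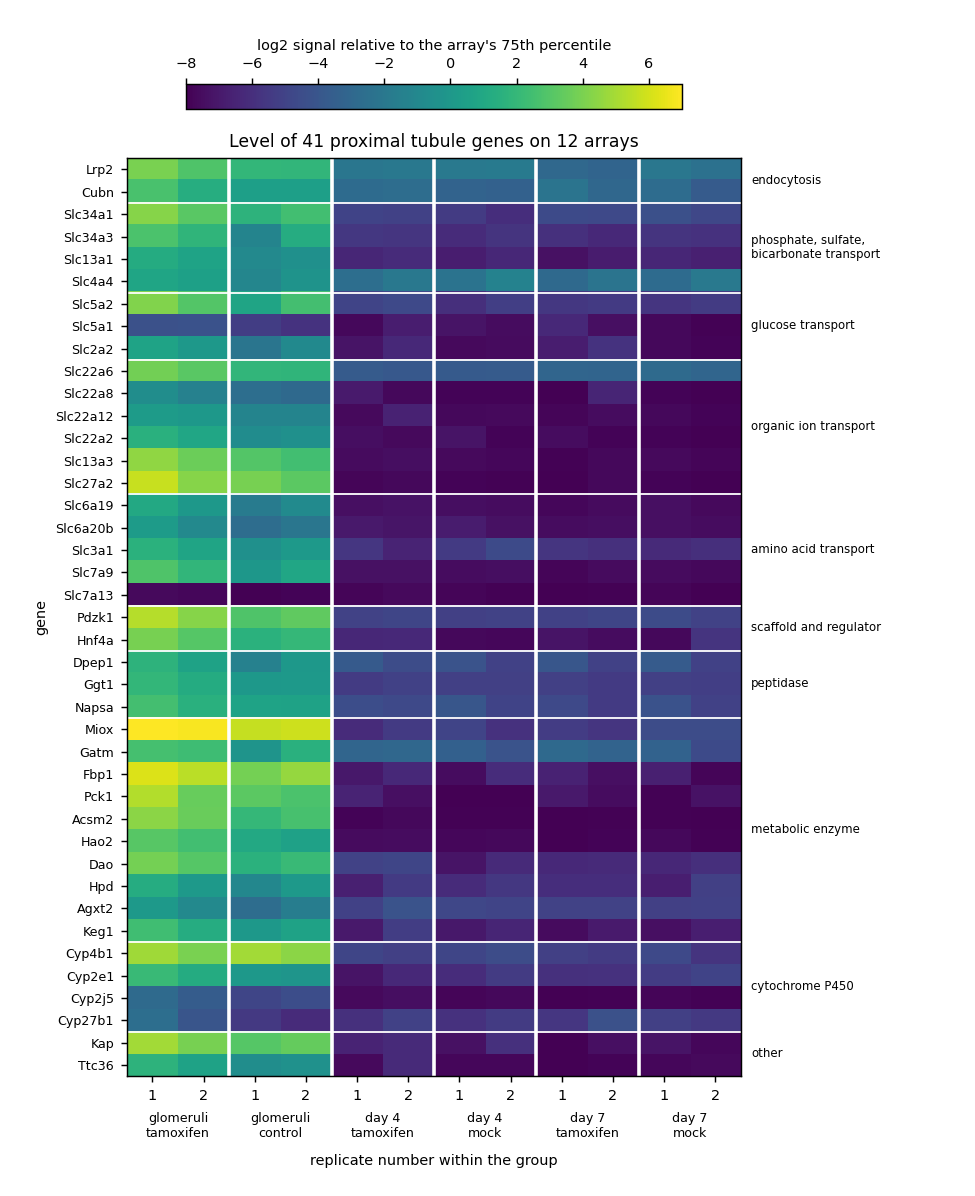
Level of all 41 genes (rows, by class) on the 12 arrays (columns, treated left of its control in each pair) as log2 signal relative to the array's 75th percentile; colours compare arrays within a row. Glomerular columns are brighter than culture columns in nearly all rows, exceptions being Slc7a13 and the controls of Cyp27b1, the 2 treated columns are brightest in most, and culture columns are dark except for rows such as Lrp2, Cubn, Slc4a4, Slc22a6 and Gatm.

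Mock cultures were lower than control glomeruli in 39 of 40 members, all of which passed, with a median difference of -6.15. Of the 40, 21 were well above background on no culture array and passed the filter only through glomeruli. Their lower reading in cultures was therefore fixed by the filter, and it enters these counts and the median. All 10 members measured on all culture arrays were lower as well. Over all genes 26.0% fell in this comparison, 63.6% passed in either direction (67.4% at an unadjusted p under 0.05) and the median was 0.17. Tissue, culture and slide go together here and cannot be told apart, since each array slide held either glomeruli or cultures of 1 day. For members dim on all mock arrays the difference is a bound, set by the dimmest probe that still counted as well above background on each array. Control glomeruli were at least 989-fold higher than mock cultures for Fbp1, at least 618-fold for Slc27a2, at least 496-fold for Kap and at least 419-fold for Pck1. The bound was 177-fold for Hnf4a, 92.7-fold for Hao2 and 2.06-fold for Cyp2j5. For Slc5a1 no bound is given, since control mouse 2 was itself not well above background. Among the members measured on all culture arrays the differences ranged from -9.59 for Cyp4b1 and -8.08 for Pdzk1 to -1.39 for Slc4a4, with Cubn at -3.71, Dpep1 at -3.81 and Lrp2 at -3.94. Cyp27b1 was the member without a fall: it read -5.86 and -5.38 in mock cultures at day 4 and -5.16 and -5.52 at day 7, against -5.50 and -6.18 in control glomeruli (difference 0.36, adjusted p = 0.57 by limma).

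Within cultures, tamoxifen gave 0 calls among the 40 members on either day. Of the 40 tested members 21 were not well above background on any culture array and passed the filter only through glomeruli, so counts over the 40 mix measured genes with background. At day 4 the mean was higher for 29 members and 53.3% of all genes, and 20 of these 29 were among the 21 unmeasured members. Among the 10 members measured on all culture arrays it was higher for 4, with a median of -0.08. The limma fit called 0.21% of all genes, and 4 members had an unadjusted p under 0.05, against 10.9% of all genes. Treated arrays lay above mock arrays for 20 members and below them for 3, as for 29.2% and 21.4% of all genes, with a median of 0.16. Dao read -5.05 and -4.88 in treated cultures, against -7.19 and -6.20 in mock cultures. Since 1 of the 8 culture arrays was well above background for it, and its other probe was above it on 0, no difference is given. With the normexp background correction, 32 members and 5037 genes were called at day 4. The members' median was then 1.35 and 40 of 40 had a higher mean, while the median over all genes shifted by 0.17. At day 7 the mean was higher for 14 members and 50.6% of all genes. The fit called 0.973% of all genes (0.453% higher and 0.519% lower), 4 members had an unadjusted p under 0.05, and the treated arrays lay above the mock arrays for 5 and below for 7, as for 22.4% and 18.9% of all genes, with a median of -0.10. Without mock replicate 1 of day 7 the mean was higher for 23 members with a median of 0.02, and with normexp for 22 with a median of 0.01, so no direction is read from these counts. Among the 10 members measured on all culture arrays the mean was higher for 2, with a median of -0.15.

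The 10 members measured on all 8 culture arrays had differences with tamoxifen that did not pass, the widest being that of Gatm at day 7. Slc22a6 read -3.71 and -3.87 in treated cultures at day 4, against -3.74 and -3.69 in mock cultures, and -3.11 and -3.16 in treated cultures at day 7, against -2.83 and -3.09 in mock cultures. Its treated and mock arrays overlapped at day 4, and at day 7 the treated arrays were slightly lower. Lrp2 read -2.12 and -1.97 in treated cultures at day 4, against -1.92 and -1.87 in mock cultures, and -2.94 and -3.16 in treated cultures at day 7, against -2.03 and -2.43 in mock cultures (difference at day 7 -0.82, adjusted p = 0.34 by limma). Its treated arrays lay below the mock arrays on both days without passing. Cubn read -2.76 and -2.65 in treated cultures at day 4, against -3.24 and -3.36 in mock cultures, and -2.23 and -3.01 in treated cultures at day 7, against -2.69 and -3.71 in mock cultures. Gatm read -3.11 and -3.01 in treated cultures at day 4, against -3.42 and -4.19 in mock cultures, and -2.84 and -3.22 in treated cultures at day 7, against -3.31 and -4.62 in mock cultures. Both genes were higher in treated cultures by their means, by 0.60 and 0.58 for Cubn and by 0.75 and 0.93 for Gatm, with none passing. The lowest limma adjusted p of these 4 values was 0.62.

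The other 6 genes measured throughout had differences between -0.42 and 0.49 on both days. Slc4a4 read -2.56 and -1.97 in treated cultures at day 4, against -2.31 and -1.38 in mock cultures, and -2.87 and -2.24 in treated cultures at day 7, against -2.76 and -1.93 in mock cultures. Dpep1 read -3.75 and -4.49 in treated cultures at day 4, against -4.13 and -5.09 in mock cultures, and -4.01 and -5.09 in treated cultures at day 7, against -3.71 and -5.11 in mock cultures. Compared within replicate number over both days, Cubn and Gatm were higher with tamoxifen in 4 of 4 pairs, and Dpep1 and Pdzk1 in 3. Ggt1 and Cyp4b1 were higher in 2 of 4 pairs, Slc22a6 and Napsa in 1, and Slc4a4 and Lrp2 in 0. No share over all genes is given for these patterns, so nothing is read from them. The labels do not say that the numbers pair the cultures. Ggt1 read -5.41 and -5.09 in treated cultures at day 4, against -5.15 and -5.13 in mock cultures, and -5.15 and -5.45 in treated cultures at day 7, against -5.16 and -5.23 in mock cultures. Pdzk1 read -5.04 and -4.88 in treated cultures at day 4, against -5.19 and -5.06 in mock cultures, and -5.07 and -4.87 in treated cultures at day 7, against -4.58 and -5.03 in mock cultures. Neither of these genes, both called in glomeruli, passed in cultures. Napsa ranged from -5.47 to -4.01 and Cyp4b1 from -5.74 to -4.54 over the 8 culture arrays. A further 6 genes were well above background on both arrays of at least 1 culture group: Slc34a1, Slc5a2, Slc3a1, Miox, Agxt2 and Cyp27b1. Slc34a1 read -5.00 and -5.10 in treated cultures at day 4, against -5.40 and -6.03 in mock cultures, and -4.66 and -4.68 in treated cultures at day 7, against -4.35 and -4.78 in mock cultures. Miox read -5.32 and -5.67 in treated cultures at day 7, against -4.52 and -4.51 in mock cultures (difference -0.98, adjusted p = 0.25 by limma). The other 4 lay between -6.49 and -4.15 on all culture arrays.

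**Figure D5:**
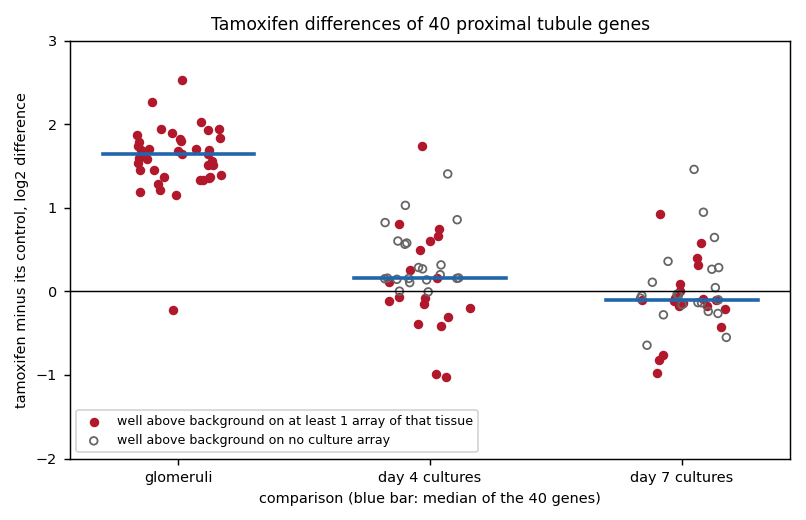
Difference between tamoxifen and its control (vertical axis, log2) for the 40 tested genes in glomeruli and in cultures of each day, with open points for genes not well above background on any culture array and blue bars at the medians of 1.64, 0.16 and -0.10. In glomeruli 39 points lie above 1, and in cultures the points lie around 0 with 0 calls.

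The glomerular difference exceeded the mean culture difference for 39 of 40 members by their means, where 43.6% of all genes did so. For the 21 members not measured on any culture array, this count restates the glomerular difference. Among the 10 measured on all 8 culture arrays it was 9, the exception being Cyp4b1, with a median of 1.66 and 2 calls. Over all 40 members the difference of differences passed for 3, all of them higher in glomeruli, against 0.618% of all genes higher, 0.5% lower and 1.12% either way. These were Slc22a6 (1.77, SE 0.24, adjusted p = 0.029 by limma), Hao2 (1.93, SE 0.28, adjusted p = 0.033 by limma) and Ggt1 (1.65, SE 0.28, adjusted p = 0.044 by limma). Hao2 was not well above background on any culture array, so its culture differences are between unmeasured levels. The count of 3 was 0 without control mouse 1 or without any 1 of 7 culture arrays, 1 without treated mouse 1 and 15 without treated mouse 2. Between mock cultures of day 7 and day 4, limma called 0 members and 0.0329% of all genes (0.00657% lower), and 4 members and 6.49% of all genes had an unadjusted p under 0.05. The mean was higher at day 7 for 15 members and 52.2% of all genes, with a median of -0.07, and without mock replicate 2 of day 7 for 25 members with a median of 0.03. Slc22a6 was at 0.76, Slc34a1 at 1.15, Miox at 0.88 and Slc3a1 at -1.07 in that comparison, in which day and slide cannot be told apart. Slc34a1 was not well above background on the mock arrays of day 4, nor Slc3a1 on those of day 7. Both differences therefore rest partly on unmeasured levels. The other Slc34a1 probe, well above background on no culture array, read -7.15 and -7.37 at day 7, against -7.20 and -6.42 at day 4.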

How the data were processed

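Intensity values were read from the deposited scanner files, which Agilent Feature Extraction 11.5.1.1 wrote, per the file headers and the submitters' processing notes. They hold a background-subtracted signal, a median signal, a local background and flags per spot. The authors' deposited table of log2 values matched log2 signal shifted to the array's 75th percentile up to a constant of 0.094 to 0.121 per column (medians -4.14 to -3.82), so scale and centring are known and genes were not centred. The number of columns without a sample was 0.

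From the scanner files, log2 signal minus the array's 75th percentile was taken, control and outlier spots (83 to 134 per array) were left out, and replicate spots were averaged. Of 39429 probes 26581 had 1 symbol, through the RefSeq accession (GRCm38.p6), 0 several and 12848 none. Probes well above background on at least 2 arrays were kept, and the brightest probe stood for a gene. Of 6 members with several probes, all probes measured on the glomerular arrays gave differences of 1.37 to 1.79. Limma 3.58.1 (R 4.3.3) fitted 6 group means over 12 arrays, with 6 residual degrees of freedom plus a prior of 1.87, and called genes at a Benjamini-Hochberg adjusted p under 0.05. Of the second proximal tubule list, 1 gene is not reported here. The fit was tested on simulated data. The members, lists, tests and alternatives were chosen with earlier results of these data known. All 41 members were accounted for. Values by array are given for called members, at least 1 of each class, the S3 members, Kap and, as values or ranges, members measured in cultures, and from other lists for called genes (up to 8) or the 2 of smallest p; further genes were named after their values were seen. Alternatives were other background, scaling, filter, probe, variance and sample choices. Files without a mean signal led normexp to use the median signal. The arrays lay on 3 slides, 1 each for glomeruli, day 4 and day 7 cultures.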

Additional observations from a re-analysis of the deposited data

Results flagged for a closer look

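For 5 proximal tubule genes, 3 of them measured in cultures, the glomerular difference between tamoxifen and control differed from the mean of the culture differences by a test of that difference (limma, Benjamini-Hochberg over 15215 genes). Among the members these were Slc22a6 (1.77, SE 0.24), Hao2 (1.93, SE 0.28) and Ggt1 (1.65, SE 0.28). Among other proximal tubule genes they were the transporter genes Slc5a10 (1.24, SE 0.19) and Slc6a18 (1.31, SE 0.23). The adjusted p-values were 0.029 to 0.046. Hao2 and Slc6a18 were not well above background on any culture array, so their values subtract differences between unmeasured levels and do not compare a response in cultures.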

How the results depend on the processing

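The members' higher level in treated glomeruli kept its direction: 38 to 40 members had a higher mean under each alternative, and the median difference of 1.64 ranged from 1.45 to 1.69 over the settings and from 1.23 to 2.09 without 1 array. The number of calls did not: 11 became 0 with normexp (5 genes in all, against 402), 0 on the glomerular arrays alone (0 genes, 34 members and 2052 genes at an unadjusted p under 0.05), and 2 to 18 without 1 array (86 to 495 genes). It was 8 to 16 under the other settings (257 genes without a filter). The normexp setting called 32 members at day 4, where 0 were called otherwise. The difference of differences was called for 0 members with normexp, 5 with quantile normalization, 5 with eBayes' trend and robust options and 0 to 15 without 1 array, against 3. Cyp4b1, at -0.22, ranged from -0.67 to 0.23 without 1 array: it turned to 0.05 without control replicate 1 and 0.23 without treated replicate 2. Over 879 results for single members in glomeruli under the alternatives, 739 kept direction and side of the threshold, 108 lost a call, 30 gained one and 2 turned. Over all genes the day 4 count of 32 was 5037 with normexp, 52 with quantile normalization and 82 with trend and robust options. It was 18 on the culture arrays of both days alone, and it also varied when 1 array was left out. The day 7 count of 148 was 44 with normexp and 39 on the culture arrays of both days alone, and it also varied when 1 array was left out. For the difference of differences the count of 170 was 0 with normexp, 102 without a filter and 6 to 367 without 1 array, and for mock day 7 against day 4 the count of 5 ranged from 0 to 10. In cultures against control glomeruli 37 to 39 members passed, a count that includes members measured only in glomeruli. Scaling to the median moved the share of higher calls over all genes to 77.1% from 65.9% in glomeruli, 58.3% from 43.8% at day 4, 61.6% from 46.6% at day 7 and 70.2% from 59.1% between mock cultures and control glomeruli, where it shifted the median of all genes by 0.23. In cultures the members' direction was not stable: the mean was higher for 24 to 40 of them at day 4, 12 to 23 at day 7 and 12 to 25 between mock day 7 and day 4. The causes were not tested.

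Replicate numbers did not pair the samples by label. Same-numbered cultures deviated together (r = 0.395 to 0.551), treated and control glomeruli at r = 0.21, and glomeruli and cultures at -0.038 to 0.085. With the replicate block 16 members and 949 genes were called in glomeruli, 0 members and 238 genes at day 4, 0 members and 658 genes at day 7, and 8 members and 717 genes for the difference of differences. Each slide held both groups of its tamoxifen comparison, so a slide block is contained in the group means and was not run separately. Fits on the glomerular or the culture arrays alone were not run for the contrasts that span tissues. Near background, levels have no reliable order.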
